A study of Mus musculus with 8 samples.

Results

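The fibroblast growth factors (FGFs) and their receptors were followed at RNA level in 4 mouse mammary tumour cell lines. The 10 genes were taken from the 27179 rows of the gene count table by Entrez identifier and comprised the ligands Fgf1 (14164), Fgf2 (14173), Fgf7 (14178), Fgf18 (14172) and Fgf21 (56636), the kinase receptors Fgfr1 (14182), Fgfr2 (14183), Fgfr3 (14184) and Fgfr4 (14186), and the receptor-like gene Fgfrl1 (116701). The question was whether the lines that hold Fgf1 transcript also hold transcripts of the receptors that FGF1 binds. The lines 4T1.2, 4T1, 66cl4 (written 66c14 in some sample names) and 67NR are isogenic, derive from BALB/c mice, carried no treatment, and were each sequenced as 2 biological replicates, giving 8 libraries of total RNA. Each line is 1 established line grown without the host, so a value describes that line and not a class of tumours, and whether the replicates came from separate cultures is not stated, so p-values measure the spread between these libraries. As the study did, 4T1 and 4T1.2 (4T1/4T1.2) were compared with 66cl4 and 67NR (66cl4/67NR), and every pair of lines was compared as well; the comparisons share libraries.

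FGFs are secreted proteins that bind FGF receptors on the cell surface together with heparan sulfate, a sulfated sugar chain carried by syndecans and glypicans. Bound receptors phosphorylate the adaptor FRS2 and signal through the MAP kinases, which induce genes of the ETS family and a set of feedback inhibitors of the same pathway. FGF1 binds every kinase receptor, whereas FGF7 and FGF10, made by mesenchymal cells, act on the epithelial splice form of FGFR2; FGF10 with FGFR2 is needed for the mammary bud to form. FGFRL1 binds FGFs but lacks the kinase domain, and FGF21 is a hormone that needs the co-receptor beta-Klotho.

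Fgf1 was abundant in 4T1.2 and 4T1 and low in 66cl4 and 67NR, and Fgf7 went the other way. Fgfr2 and Fgfr3 were higher in 4T1/4T1.2 and Fgfr1 was present in all lines and highest in 66cl4. Fgf2, Fgf18, Fgf21 and Fgfr4 were at or near 0 in every library. The 2 lines with Fgf1 therefore held transcripts of Fgfr1, Fgfr2 and Fgfr3, but so did 67NR, where Fgf1 was low.

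The bases just upstream are shown for genes that separated the lines, set in pairs by direction. The receptors Fgfr2 and Fgfr3 were higher in 4T1/4T1.2, and the ligands Fgf7 and Fgf10 were higher in 66cl4/67NR. A shared direction is common here, as 38.1% of all genes tested were higher in 4T1/4T1.2 and 38.6% lower. The receptors also parted between 66cl4 and 67NR, with log2 fold changes of -3.49 for Fgfr3 and 0.10 for Fgfr2, the latter not passing the test. Each run gives the 250 bases before a start site annotated by RefSeq (GRCm38.p6), from 5′ to 3′ on the gene's own strand, and capitals mark a GC box (GGGCGG or its reverse complement CCGCCC). Of the 10 members 8 had a window available here, and Fgf1 and Fgfr1 had none that is shown or searched. The data do not show which start site each line used.
Fgfr2 (chr7:130266809-130267058, minus strand): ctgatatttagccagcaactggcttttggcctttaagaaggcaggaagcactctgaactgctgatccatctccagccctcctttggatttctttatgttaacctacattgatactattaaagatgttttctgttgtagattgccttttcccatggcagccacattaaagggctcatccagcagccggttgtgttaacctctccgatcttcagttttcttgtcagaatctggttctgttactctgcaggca
Fgfr3, first of 2 start sites (chr5:33721474-33721723, plus strand): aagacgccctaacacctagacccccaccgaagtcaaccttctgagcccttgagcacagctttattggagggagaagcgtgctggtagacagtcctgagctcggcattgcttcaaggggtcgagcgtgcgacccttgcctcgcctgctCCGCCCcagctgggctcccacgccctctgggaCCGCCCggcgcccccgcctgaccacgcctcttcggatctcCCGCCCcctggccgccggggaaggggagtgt
Fgf7 (chr2:126034408-126034657, plus strand): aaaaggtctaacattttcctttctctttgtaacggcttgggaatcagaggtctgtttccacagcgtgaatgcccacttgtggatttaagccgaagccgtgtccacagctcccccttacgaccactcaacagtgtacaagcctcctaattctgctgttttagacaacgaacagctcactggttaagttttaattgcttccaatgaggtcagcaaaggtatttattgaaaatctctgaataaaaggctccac
Fgf10 (chr13:118714449-118714698, plus strand): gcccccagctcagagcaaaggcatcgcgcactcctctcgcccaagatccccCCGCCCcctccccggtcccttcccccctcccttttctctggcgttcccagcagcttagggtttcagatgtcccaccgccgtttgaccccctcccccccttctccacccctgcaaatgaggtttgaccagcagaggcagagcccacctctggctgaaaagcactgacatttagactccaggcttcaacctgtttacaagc

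Both strands of these windows were searched for 4 strings. A GC box, held by 32.7% of all 32817 windows of this length, occurred 3 times before the first and 2 times before the second start site of Fgfr3, once before Fgf10, and not before Fgfr2 or Fgf7. The ETS core CCGGAA (12% of all windows), the E-box CAGGTG read by ZEB factors (17.2%) and the TATA string TATAAA (12.4%) occurred in none of these windows. The pair that was higher in 4T1/4T1.2 was unlike in base composition: the Fgfr2 window held 2 CpG dinucleotides at 44% G and C, the first Fgfr3 window 19 at 66.8%. The Fgf7 window held 6 CpG dinucleotides at 43.6% and the Fgf10 window 8 at 61.2%. Neither pair therefore shared a searched string.

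Levels are given as RPKM, read counts scaled to gene length and library size, computed from the deposited counts and gene lengths with library sizes set by the trimmed mean of M values (TMM). Libraries held 37159840 to 66269681 counted reads, and the shallowest was replicate 1 of 67NR. Differences are log2 fold changes ± SE from edgeR's quasi-likelihood test, and a gene was called where its Benjamini-Hochberg adjusted p, over 13924 genes tested, was under 0.05. Epcam, an epithelial adhesion molecule, had 778 to 2378 counts in the 4T1.2 and 4T1 libraries and 0 or 1 in those of 66cl4 and 67NR, and Cdh2, a mesenchymal cadherin, had 0 or 1 and 2975 to 5099. All 8 epithelial markers looked at were higher in 4T1/4T1.2, and 6 of 8 mesenchymal markers were lower and 1 higher. Of all genes tested 38.1% were higher and 38.6% lower. The 1 higher was Vim, the most abundant of the mesenchymal markers. Its means were 2973 and 3176 RPKM in 4T1.2 and 4T1 and 1786 and 1062 RPKM in 66cl4 and 67NR. Krt8, an epithelial marker, had means of 552 and 793 RPKM in 4T1.2 and 4T1 and of 335 and 275 RPKM in 66cl4 and 67NR. Of the leucocyte markers Ptprc had 0 to 2 counts and Cd3e and Adgre1 none, but the 8 summed to 32.4 to 53.0 RPKM over the 8 libraries, most of it Cd14 and Lyz2. Cd14 had means of 45.4 and 48.8 RPKM in 4T1.2 and 4T1 and of 26.7 and 10.5 RPKM in 66cl4 and 67NR, and Lyz2, at 18.6 and 21.4 RPKM in 66cl4 and 67NR, had 0 to 4 counts in the 4T1.2 and 4T1 libraries. Of the endothelial markers Kdr and Cldn5 had 0 or 1 count. The summed level of the 8 endothelial markers was 19.0 to 26.3 RPKM in 4T1.2 and 4T1 against 0.217 to 0.544 RPKM in 66cl4 and 67NR, most of it Egfl7; the part of these markers in the results below was not tested.

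Fgf1 (chr18:38838672-38929470, minus strand) encodes acidic FGF, which leaves cells without a signal peptide. Its level was 26.3 and 22.3 RPKM in the 4T1.2 libraries and 22.6 and 20.4 RPKM in those of 4T1. It was 0.175 and 0.308 RPKM in 66cl4 and 0.656 and 0.498 RPKM in 67NR. All 4 libraries of 4T1/4T1.2 therefore lay far above the other 4, with no overlap, and these levels rested on 3694 to 5837 reads against 31 to 120. The log2 fold change of 4T1/4T1.2 against 66cl4/67NR was 5.95 ± 0.15, a 61.7-fold difference (adjusted p = 2.61e-10, edgeR). Between the low lines Fgf1 was also lower in 66cl4 than in 67NR, by a log2 fold change of -1.23 ± 0.26 (adjusted p = 0.00354, edgeR). 4T1.2 and 4T1, in contrast, were not distinguished: the difference was 0.18 ± 0.15 with a 95% interval of -0.17 to 0.52 (adjusted p = 0.49, edgeR), and their libraries overlapped. The order of levels was thus 4T1.2 and 4T1, then 67NR, then 66cl4.

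Fgf7, keratinocyte growth factor, lies at chr2:126034658-126091185 on the plus strand. Its level was 4.47 and 2.06 RPKM in 66cl4 and 0.878 and 1.01 RPKM in 67NR. In 4T1.2 it was 0.244 and 0.324 RPKM and in 4T1 0.276 and 0.331 RPKM. Every 4T1.2 and 4T1 library was below every other library, but the 66cl4 replicates differed from each other by more than those of any other line. Fgf7 was lower in 4T1/4T1.2 than in 66cl4/67NR by a log2 fold change of -2.59 ± 0.27 (adjusted p = 1.04e-05, edgeR), and it was 3.44-fold higher in 66cl4 than in 67NR (1.78 ± 0.32, adjusted p = 0.00157). Without replicate 1 of 66cl4 the latter log2 fold change was 1.12 (adjusted p = 0.00525, edgeR), and those of 4T1.2 and 4T1 against 66cl4 went from -3.52 and -3.44 to -2.86 and -2.77. The difference between 4T1.2 and 4T1 did not pass the test for Fgf7 (-0.09 ± 0.44, interval -1.07 to 0.89, adjusted p = 0.931, edgeR).

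**Figure D1:**
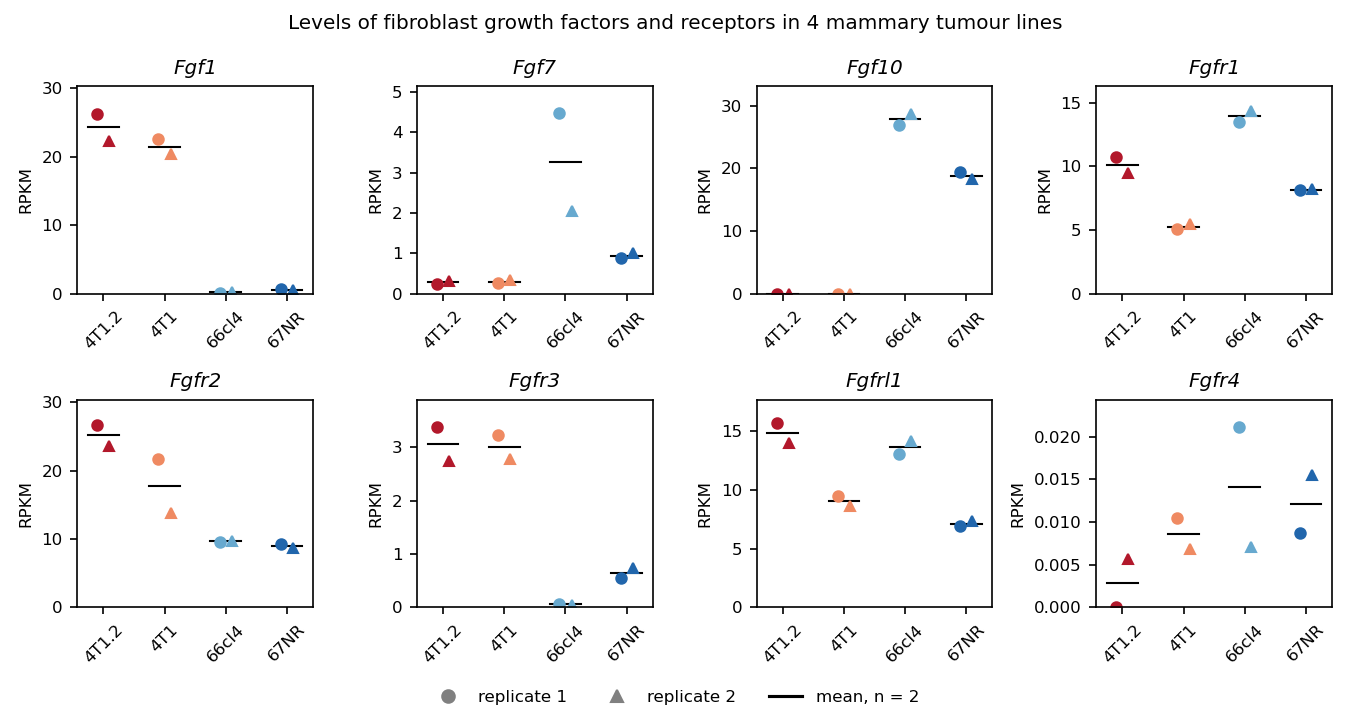
RPKM of 8 genes in each library of the 4 lines; circles are replicate 1, triangles replicate 2 and bars the mean (n = 2), with a linear axis of its own for each gene. Fgf1 sits at 20.4 to 26.3 RPKM in 4T1.2 and 4T1, while Fgf10 reaches 18.3 RPKM or more only in 66cl4 and 67NR among the 4 lines; Fgfr4 is at 3 reads or fewer in every library.

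The remaining ligands among the members were barely detected. Fgf18 had 0 to 12 counts in any library and Fgf21 0 to 5, so neither passed the filter on low counts and no difference was tested. Fgf2, basic FGF, had 0 counts in all 8 libraries, and a floor of 3 counts per library corresponds to 0.0700 to 0.118 RPKM. That value covers only the 695 bases deposited as the length of Fgf2, whereas the longest GENCODE transcript of the gene has 5973 bases. The exons of Fgf2 also share 640 bases with Nudt6 on the opposite strand, and strand use in the counting is not given in the sources used here. The 0 therefore does not show that the lines lacked Fgf2 transcript.

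Of the 18 secreted FGF genes listed, 4 passed the filter: Fgf1, Fgf7, Fgf10 and Fgf17. Fgf10 (chr13:118714699-118792573, plus strand), a ligand of the same epithelial receptor form as Fgf7, was at 27.0 and 28.7 RPKM in 66cl4 and at 19.5 and 18.3 RPKM in 67NR. The 4 libraries of 4T1.2 and 4T1 held 3 Fgf10 reads in all, against 19880 in the other 4, a depth-scaled ratio of 7769 with a 95% counting interval of 2658 to 37678. Fgf10 therefore mirrored Fgf1, and it was higher in 66cl4 than in 67NR by a log2 fold change of 0.56 ± 0.13 (adjusted p = 0.00552, edgeR), the opposite order of that of Fgf1 in these lines. Fgf17 was low throughout, at 0.0162 to 0.303 RPKM, and higher in 4T1/4T1.2 (1.97 ± 0.35, adjusted p = 0.000551, edgeR; 2.51 without replicate 2 of 67NR). Fgf8 reached 10 counts in 1 library of 66cl4 and was not tested. Among the 4 intracellular FGF homologous factors, which are not secreted and do not act through these receptors, Fgf11 was at 1.01 to 1.61 RPKM as line means with a log2 fold change of -0.30 ± 0.17 (adjusted p = 0.134, edgeR), and Fgf14 had 0 counts in 4T1.2 and 4T1 and 4 to 12 in the other lines.

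Fgfr2 (chr7:130162451-130266808, minus strand) was the most abundant kinase receptor transcript in 4T1.2, 4T1 and 67NR. It measured 26.8 and 23.6 RPKM in 4T1.2 and 21.7 and 13.8 RPKM in 4T1. In 66cl4 both libraries were at 9.63 and 9.64 RPKM, and in 67NR they were at 9.32 and 8.61 RPKM. No 4T1.2 or 4T1 library overlapped the other lines, although replicate 2 of 4T1 was nearer to them than the other 3. Fgfr2 was 2.28-fold higher in 4T1/4T1.2 than in 66cl4/67NR, a log2 fold change of 1.19 ± 0.13 (adjusted p = 1.4e-05, edgeR), and 66cl4 and 67NR did not pass the test (0.10 ± 0.18, interval -0.30 to 0.50, adjusted p = 0.668). The higher mean in 4T1.2 than in 4T1 missed the threshold at 0.50 ± 0.18 (interval 0.11 to 0.90, adjusted p = 0.0767, edgeR); it passed without replicate 1 of 4T1, at 0.87 (adjusted p = 0.00034), and with DESeq2 (adjusted p = 0.0331). Between the replicates of 4T1, replicate 1 was higher than replicate 2 by 0.658 on the log2 scale for Fgfr2, by 0.187 for the median gene of the longest of 4 equal length classes, and by -0.212 for the shortest class; the part of length in the Fgfr2 value was not tested.

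Fgfr3 (chr5:33721724-33737068, plus strand) was the receptor that separated the lines most. Its level was 3.38 and 2.75 RPKM in 4T1.2 and 3.23 and 2.79 RPKM in 4T1. It was 0.0703 and 0.0457 RPKM in 66cl4, which is 14 and 9 reads, and stood between at 0.552 and 0.744 RPKM in 67NR. The log2 fold change of 4T1/4T1.2 against 66cl4/67NR was 3.95 ± 0.17 (adjusted p = 1.06e-08, edgeR), and 4T1.2 and 4T1 did not pass the test (0.02 ± 0.17, interval -0.36 to 0.40, adjusted p = 0.958). 66cl4 was 11.2-fold below 67NR (-3.49 ± 0.30, adjusted p = 1.54e-05, edgeR), so the 4T1/4T1.2 difference was 5.71 and 5.69 on the log2 scale against 66cl4 and 2.22 and 2.20 against 67NR. The order, 4T1.2 and 4T1, then 67NR, then 66cl4, is the one seen for Fgf1. In a fit with 2 groups of 4 libraries the pooled value was 3.10 (adjusted p = 0.00808, edgeR). Of the 75-base stretches of Fgfr3 transcripts 9.96% also occur in G630022F23Rik on the opposite strand, so reads there cannot be assigned without strand.

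Fgfr1 (chr8:25518759-25575718, plus strand), the kinase receptor typical of mesenchymal cells, was present in every line. It was highest in 66cl4 at 13.5 and 14.4 RPKM, followed by 4T1.2 at 10.8 and 9.52 RPKM. It was 8.15 and 8.20 RPKM in 67NR and lowest in 4T1 at 5.06 and 5.49 RPKM. The order therefore cut across the Fgf1 pattern, with 1 line of each kind at either end. Neighbours in that order were called different: 66cl4 against 4T1.2 (4T1.2 minus 66cl4, -0.46 ± 0.10, adjusted p = 0.00193), 4T1.2 against 67NR (0.31 ± 0.10, adjusted p = 0.0165) and 67NR against 4T1 (4T1 minus 67NR, -0.63 ± 0.10, adjusted p = 0.000279; all edgeR). The middle one was lost without replicate 1 of 4T1.2 (0.22, adjusted p = 0.137), replicate 1 of 67NR (0.31, adjusted p = 0.0802) or replicate 2 of 67NR (0.32, adjusted p = 0.0752). Averaged over the pairs of lines Fgfr1 was lower in 4T1/4T1.2 (-0.55 ± 0.07, adjusted p = 4.76e-05, edgeR) but the libraries overlapped, and in a fit with 2 groups of 4 libraries it was not called (-0.52, adjusted p = 0.163).

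Fgfrl1 (chr5:108694229-108706950, plus strand), the receptor without a kinase, had 15.7 and 14 RPKM in 4T1.2 and 13.1 and 14.2 RPKM in 66cl4. It had 9.51 and 8.64 RPKM in 4T1 and 6.95 and 7.31 RPKM in 67NR. The 2 upper lines overlapped and did not pass the test (0.12 ± 0.10, interval -0.11 to 0.35, adjusted p = 0.316, edgeR). 4T1.2 exceeded 4T1 (0.71 ± 0.10, adjusted p = 0.00137, edgeR) and 66cl4 exceeded 67NR (0.93 ± 0.11, adjusted p = 8.7e-05, edgeR), so Fgfrl1, like Fgfr1, differed within each pair of lines. Its pooled difference was 0.24 ± 0.07 (adjusted p = 0.0147, edgeR), with overlapping libraries, and it was not called without replicate 1 of 4T1.2 (0.20, adjusted p = 0.0555), of 66cl4 (0.21, adjusted p = 0.0519) or of 67NR (0.22, adjusted p = 0.0573), nor in a fit with 2 groups (0.20, adjusted p = 0.568). 4T1 was above 67NR by 0.35 ± 0.11 (adjusted p = 0.0143, edgeR), which was lost without replicate 1 of 4T1 (0.28, adjusted p = 0.0636) or of 67NR (0.31, adjusted p = 0.0882). Fgfr4 had 0 to 3 reads in any library and was not tested.

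**Figure D2:**
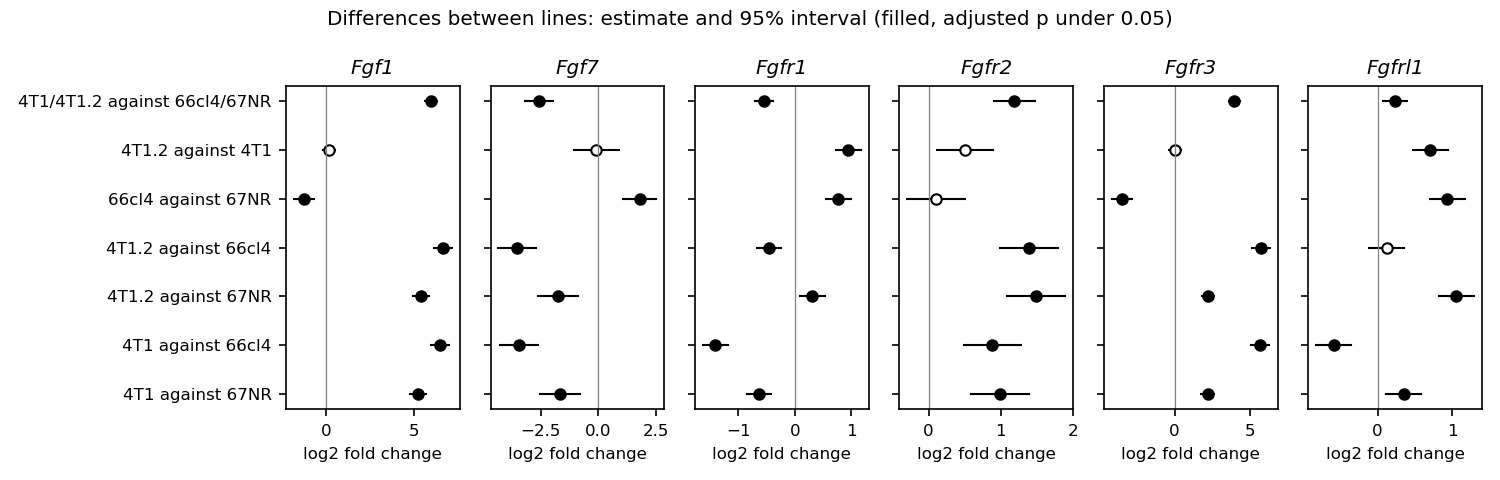
Log2 fold changes of the 6 members tested, first line named against the second, with 95% intervals; filled points have an adjusted p under 0.05 in edgeR's test, and each gene has its own linear axis. Fgf1, Fgfr2 and Fgfr3 lie to the right of 0 in every comparison of 4T1.2 or 4T1 with 66cl4 or 67NR, Fgf7 lies to the left, and Fgfr1 and Fgfrl1 lie on both sides.

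In counts of calls, 6 of the 10 members passed the filter on low counts and all 6 were called in 4T1/4T1.2 against 66cl4/67NR, a comparison in which 76.7% of all genes tested were called. Of the 6, 4 were higher and 2 lower, against 38.1% and 38.6% of all genes, and their median log2 fold change was 0.71 against -0.01 over all genes. Of the same 6, 2 were called in 4T1.2 against 4T1 (Fgfr1 and Fgfrl1, where 19.3% of genes were called) and 5 in 66cl4 against 67NR (44.7% of genes). In 4T1.2 against 66cl4 it was 5 (68.9% of genes) and in 4T1.2 against 67NR 6 (67.9%). Against 66cl4 and 67NR, 4T1 differed in 6 members each time (70.1% and 68.2% of genes).

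Because RPKM is scaled by gene length, the kinase receptors of a library can be set beside each other. The summed level of Fgfr1, Fgfr2, Fgfr3 and Fgfr4 was highest in 4T1.2, at 38.4 ± 3.56 RPKM, followed by 4T1 with 26.0 ± 5.64, 66cl4 with 23.6 ± 0.602 and 67NR with 17.8 ± 0.325 (mean ± SD, n = 2). Fgfr2 made up 65.6% ± 0.258 of this sum in 4T1.2 and 67.4% ± 7.02 in 4T1, but 40.8% ± 1.01 in 66cl4 and 50.4% ± 1.91 in 67NR. Fgfr1 was the larger part in 66cl4, with 58.9% ± 1.13, and took 26.4% ± 0.157, 20.9% ± 5.69 and 45.9% ± 1.05 in 4T1.2, 4T1 and 67NR. Fgfr3 was a minor receptor everywhere, with 11.7% ± 1.34 in 4T1, 7.96% ± 0.425 in 4T1.2, 3.65% ± 0.831 in 67NR and 0.246% ± 0.0800 in 66cl4. The 2 lines with Fgf1 therefore held receptor transcript made up mostly of Fgfr2, while 66cl4 held mostly Fgfr1. Counts per gene do not separate the epithelial and mesenchymal splice forms of a receptor, and in bulk RNA fewer cells with a transcript and less transcript per cell cannot be told apart.

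The ligands gave the sharper contrast. Of the summed RPKM of Fgf1, Fgf7 and Fgf10, Fgf1 was 98.8% ± 0.373 in 4T1.2 and 98.6% ± 0.311 in 4T1, and 0.773% ± 0.310 in 66cl4 and 2.82% ± 0.428 in 67NR. Fgf10 was 88.8% ± 4.99 in 66cl4 and 92.5% ± 0.218 in 67NR (mean ± SD, n = 2). The sum itself differed less, from 20.4 ± 0.879 RPKM in 67NR to 31.4 ± 0.392 in 66cl4. Each line thus held 1 prevailing ligand transcript of these 3 together with Fgfr1 and Fgfr2.

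**Figure D3:**
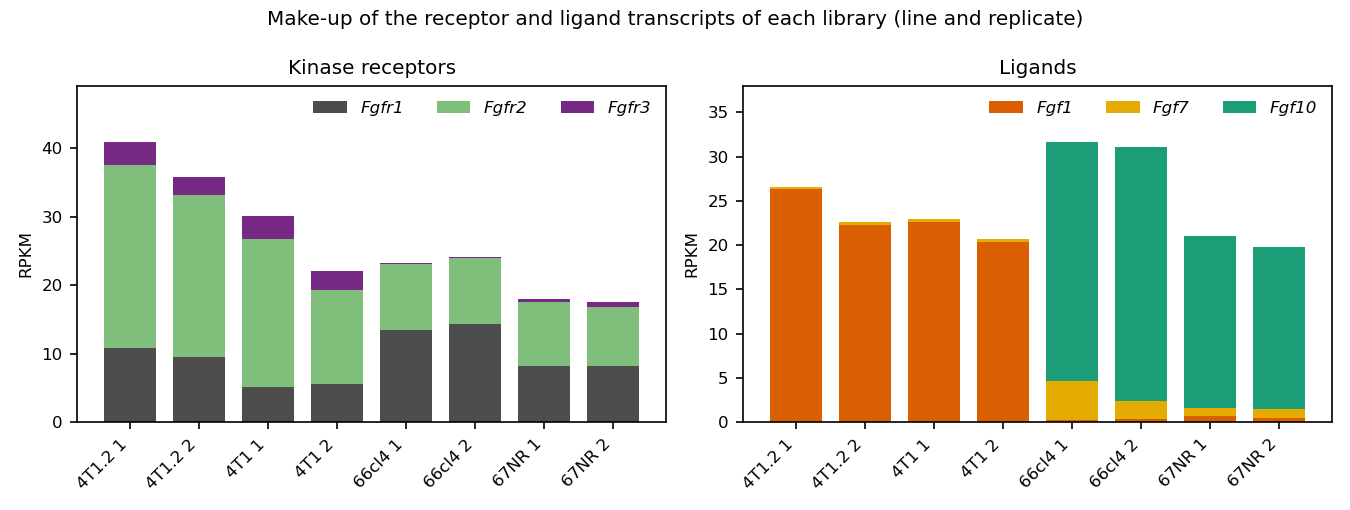
Stacked RPKM of Fgfr1, Fgfr2 and Fgfr3 (left) and of Fgf1, Fgf7 and Fgf10 (right) in each of the 8 libraries, named by line and replicate; bars start at 0. Fgfr2 is the largest receptor part in the 4T1.2 and 4T1 libraries and Fgfr1 in those of 66cl4, and the ligand bar is nearly all Fgf1 in 4T1.2 and 4T1 and mostly Fgf10 in 66cl4 and 67NR.

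Around the ligands, 9 of 14 co-receptors and carriers were tested in 4T1/4T1.2 against 66cl4/67NR, and 6 were higher and 3 lower (median log2 fold change 0.44, against -0.01 over all genes, of which 76.7% were called). Sdc3 and Sdc4 are syndecans, membrane proteins that carry heparan sulfate. Sdc3 was at 3.67 to 5.33 RPKM in the libraries of 4T1.2 and 4T1 and at 0.296 to 0.409 RPKM in the others (3.79 ± 0.12, adjusted p = 1.58e-09, edgeR), and Sdc4, the more abundant, was at 229 to 388 RPKM against 60.0 to 131 RPKM (1.77 ± 0.11). Fgfbp1, a carrier that releases FGFs from the matrix, was at 29.8 RPKM ± 6.53 in 4T1 but at 3.48 ± 0.166 in 4T1.2 (mean ± SD, n = 2), a log2 fold change of -3.10 ± 0.18 for 4T1.2 against 4T1 (adjusted p = 8.15e-06, edgeR), and at 1.69 ± 0.232 and 1.74 ± 0.193 RPKM in 66cl4 and 67NR. Fgfbp3 went the other way (-2.96 ± 0.12, adjusted p = 9.95e-09, edgeR), and the glypican Gpc6 had no read in any library of 4T1.2 or 4T1 and 663 reads, at 0.477 to 0.571 RPKM, in the others, and the 95% counting interval of the depth-scaled ratio starts at 210.1. The co-receptors of the hormonal FGFs were near 0, with 0 to 3 counts of Kl and 0 to 6 of Klb.

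The enzymes that build and trim heparan sulfate moved both ways: of 18 listed, 14 were tested, with 5 up and 8 down in 4T1/4T1.2 (median -0.47), and 92.9% were called against 76.7% of all genes. Hpse, heparanase, which cleaves the chains, was at 3.58 to 4.23 RPKM in 4T1.2 and 4T1 and at 0.00717 to 0.0217 RPKM in the others (7.80 ± 0.20, adjusted p = 2.7e-10, edgeR). Hs2st1 and Extl3, which sulfate and start the chains, were higher by 0.76 ± 0.06 and 0.72 ± 0.07 on the log2 scale. The sulfotransferases Ndst4 (-9.11 ± 0.21) and Hs3st1 (-6.82 ± 0.30) were lower, Hs3st1 being at 15.7 to 17.1 RPKM in 66cl4 and 0.337 to 0.518 RPKM in 67NR, and at -8.51 in a fit with 2 groups of 4 libraries. Ndst4 was near the floor in 4T1.2 and 4T1, with means of 0.0101 and 0.00544 RPKM, against 5.60 and 3.56 RPKM in 66cl4 and 67NR. The sulfatase Sulf1 had 3 reads over the 4 libraries of 4T1.2 and 4T1 and 195 over the others, a ratio of 76.2 with a counting interval of 25.7 to 373. Epithelial and mesenchymal markers moved with these genes, and their part was not tested.

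Of the 18 genes between the receptors and the MAP kinases all were tested, and in 4T1/4T1.2 there were 2 higher and 10 lower (median -0.26), so 66.7% of the list was called against 76.7% of all genes. Gab1, a docking protein that couples FRS2 to PI3 kinase, stood out at 0.0944 to 0.175 RPKM in 4T1.2 and 4T1 against 8.62 to 13.4 RPKM in the others (-6.42 ± 0.10, adjusted p = 2.02e-11, edgeR). Braf (-1.18 ± 0.10) and the adaptor Shc1 (-0.99 ± 0.06) were lower as well, at 1.63 to 2.23 and 51.2 to 54.9 RPKM against 3.69 to 5.27 and 97.2 to 112 RPKM. The kinase Map2k2 (0.35 ± 0.09) was among those higher.

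The feedback inhibitors damp signalling from the receptors to the MAP kinases, and many of them, but not all, are induced by it. They were mostly higher in 4T1/4T1.2: 11 of 12 were tested, and 9 were higher and 2 lower. Their median log2 fold change was 1.39 against -0.01 over all genes, of which 76.7% were called (38.1% higher). Dusp6, a phosphatase of ERK, was at 153 to 201 RPKM in the libraries of 4T1.2 and 4T1 and at 27.5 to 37.0 RPKM in those of 66cl4 and 67NR (2.41 ± 0.08, adjusted p = 1.56e-09, edgeR). Spry4, a Sprouty inhibitor, was at 5.88 to 10.2 against 1.45 to 2.65 RPKM (1.98 ± 0.15), and the phosphatase Dusp5 at 14.8 to 22.3 against 5.06 to 6.03 RPKM (1.67 ± 0.09). Il17rd, also called Sef, and Cbl were the 2 lower ones (-0.88 ± 0.08 and -0.56 ± 0.20); Cbl was not called without replicate 2 of 4T1.2 (adjusted p = 0.0674), replicate 1 or 2 of 66cl4 (0.0618 and 0.0534) or replicate 1 of 67NR (0.106), edgeR. Under the 18 alternatives run, 8 or 9 of the list were higher, and the 8 came without replicate 2 of 67NR, where Spred2 was lost (adjusted p = 0.0607), and in a fit with 2 groups of 4 libraries. Against 66cl4 alone 8 were higher and 1 lower for both 4T1.2 and 4T1 (68.9% and 70.1% of all genes called), and against 67NR alone 9 were higher and 1 lower for both (67.9% and 68.2%). Within the pairs of lines the list was split, with 3 higher and 1 lower in 4T1.2 against 4T1 (19.3% of all genes called) and 3 each way in 66cl4 against 67NR (44.7%).

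The transcriptional targets were all tested, with 7 of 10 up and 3 down in 4T1/4T1.2 (median 0.89), against 38.1% of all genes higher and 38.6% lower. Against 66cl4 alone, 6 were higher and 1 lower for 4T1.2 (median 0.36, 68.9% of all genes called). For 4T1 against 66cl4, 5 were higher and 3 lower (median 0.13, 70.1% of all genes). The medians were larger against 67NR, at 1.23 for 4T1.2 (6 higher, 1 lower) and 0.95 for 4T1 (6 higher, 3 lower). There 67.9% and 68.2% of all genes were called. The ETS factors Etv4, Etv5 and Etv1, which FGF signalling induces in many tissues, led the list of those without overlap. Etv4 was at 99.6 to 125 RPKM in 4T1.2 and 4T1 and at 13.6 to 16.5 RPKM in 66cl4 and 67NR (2.91 ± 0.08, adjusted p = 5.17e-10, edgeR). Etv5 was higher by 0.91 ± 0.13 and Etv1 by 0.89 ± 0.06 on the log2 scale. Egr1 did not follow this grouping although its pooled log2 fold change was 3.17 ± 0.17: it was at 43.9 and 45.2 RPKM in 66cl4, at 34.7 and 35.7 in 4T1.2, at 12.6 and 20.4 in 4T1 and at 0.133 and 0.179 RPKM in 67NR. In a fit with 2 groups of 4 libraries Egr1 was at 0.21 (adjusted p = 0.906, edgeR) and the number of targets higher was 4. Fosl1, Ier2 and Ccnd1 were the 3 lower ones, Ccnd1 being lost without replicate 1 of 4T1.2 (adjusted p = 0.0786), replicate 2 of 66cl4 (0.0788) or replicate 1 or 2 of 67NR (0.0808 and 0.0505), edgeR. Myc, the least changed of those higher (0.28 ± 0.10), was lost without replicate 1 of 4T1.2 (adjusted p = 0.0791), replicate 1 of 66cl4 (0.0835) or replicate 1 or 2 of 67NR (0.0643 and 0.073), edgeR. These genes answer to other growth factor receptors too, and the part of FGF signalling in their levels was not tested.

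**Figure D4:**
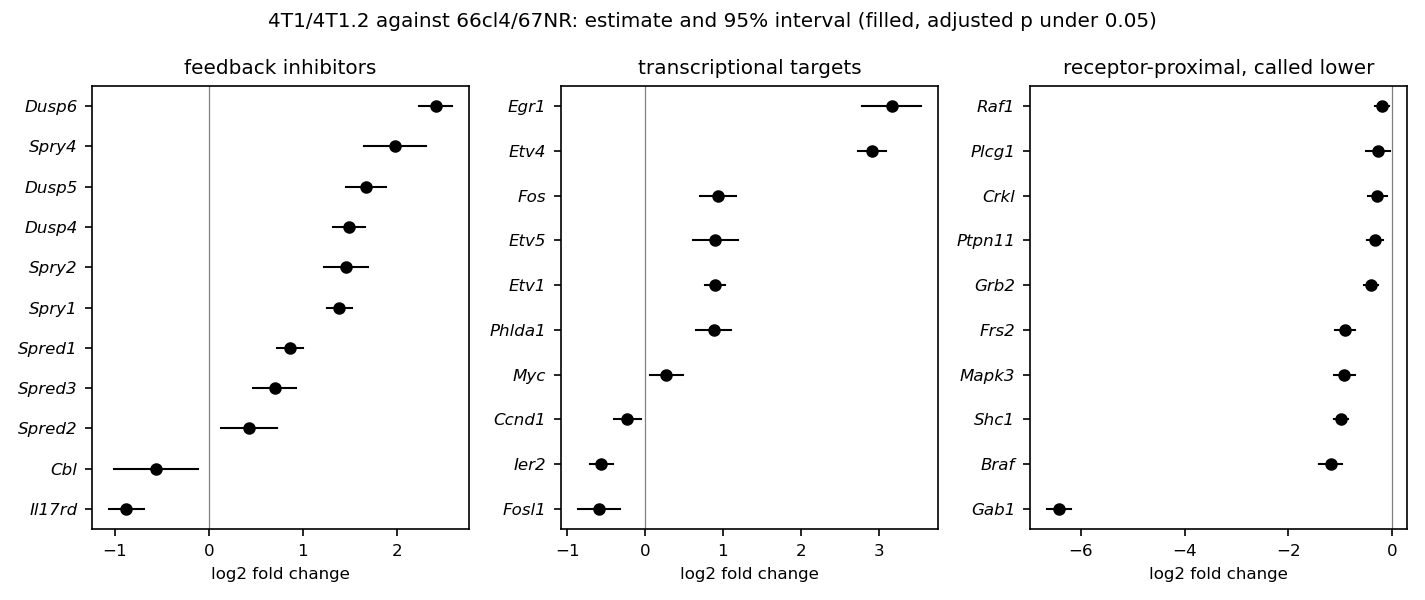
Log2 fold changes of 4T1/4T1.2 against 66cl4/67NR for the tested feedback inhibitors, transcriptional targets, and for the receptor-proximal genes called lower, with 95% intervals on linear axes; filled points have an adjusted p under 0.05. Of the feedback inhibitors 9 of 11 lie above 0, Dusp6 farthest at 2.41. The receptor-proximal panel shows only the 10 genes called lower of 18 tested, so its points lie below 0 by selection, Gab1 farthest at -6.42. The 2 receptor-proximal genes called higher and the 6 not called are left out.

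Esrp1 and Esrp2 are the splicing factors that promote the epithelial form of FGFR2, and Rbfox2 and Ptbp1 also act on that exon choice. Esrp2 was at 1.01 to 1.27 RPKM in 4T1.2 and 4T1 and at 0.00607 to 0.0165 RPKM in 66cl4 and 67NR (6.73 ± 0.27, adjusted p = 6.81e-09, edgeR), while Esrp1 had 0 counts in 7 libraries and 1 in the other. Esrp2 was thus near the floor in 66cl4 and 67NR. With at least 10 counts required in every library, 0 in place of 1 of these splicing regulators were higher. Rbfox2 was lower in 4T1/4T1.2 (-0.64 ± 0.07, adjusted p = 1.67e-05, edgeR) and Ptbp1 was not called (-0.04 ± 0.07, adjusted p = 0.67). Splice forms themselves were not measured by these gene counts.

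Of 6 genes tied to the non-classical export of FGF1 and FGF2, 5 were tested, and 3 were higher and none lower in 4T1/4T1.2, which is 60% called against 76.7% of all genes. Tec, a kinase, was higher by 0.80 ± 0.09 (adjusted p = 1.59e-05, edgeR) and Fibp, an intracellular FGF1-binding protein, by 0.24 ± 0.07 (adjusted p = 0.00803, edgeR). For both genes 4T1.2 lay close to 67NR. Tec had means of 2.54 and 5.39 RPKM in 4T1.2 and 4T1 and of 1.91 and 2.37 RPKM in 66cl4 and 67NR. Fibp had means of 32.0 and 38.6 RPKM in 4T1.2 and 4T1 and of 28.3 and 31.1 RPKM in 66cl4 and 67NR. S100a13, which leaves the cell with FGF1, was at a mean of 39.6 RPKM in 4T1/4T1.2 and 48.4 RPKM in 66cl4/67NR and did not pass the test (-0.24 ± 0.11, interval -0.48 to 0.00, adjusted p = 0.0644, edgeR); without replicate 2 of 4T1 it was called lower (-0.37, adjusted p = 0.00149). In a fit with 2 groups of 4 libraries Fibp was not called (adjusted p = 0.0794, edgeR) and 1 of the list was higher.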

How the data were processed

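RNA of 8 libraries, 2 per line, was prepared with the TruSeq RNA v2 kit. Per the labels the authors deposited raw read counts per Entrez gene from featureCounts on mm10, with gene lengths; the study's methods, written for other samples and said to be similar here, name Rsubread and its NCBI annotation, and strand use is not given in the sources used here. Symbols were matched for 93% of identifiers. Of 27179 genes 15269 passed filterByExpr (default settings), and 13924 were tested once genes without a symbol, predicted genes and ribosomal genes were left out, as in the study's methods. edgeR 4.0.16 (R 4.3.3) fitted 1 mean per line to all 8 libraries with TMM scaling and its quasi-likelihood test, and p-values were adjusted over all genes tested. The biological coefficient of variation was 9.739%. The script was tested on simulated data. RPKM used the TMM-scaled library size; intervals of log2 fold changes include the spread between replicates, whereas those of count ratios and the floor of 3 counts per library cover counting error only. Replicates differed by more than sampling noise (chi-square per degree of freedom 10.3 to 75.4). Alternatives were DESeq2 1.42.0, limma-voom (limma 3.58.1), other scalings, filters and fits, a replicate block, and each library left out. Promoter windows and gene positions are RefSeq's (GRCm38.p6), and transcript lengths and shared stretches GENCODE M21's. The members and all gene lists were chosen with earlier results of these data known. Genes named beside the members were other FGFs with at least 10 counts in a library, up to 3 per list and direction with the largest called pooled change and no overlap between the pairs of lines, and the 5 nearest to Fgf1 in profile; list members outside this rule (Cbl, Spred2, Myc, Fosl1, Ier2, Ccnd1, Egr1, Kl, Klb, Esrp1, Ptbp1, S100a13) were named after their values were seen. Of the genes the rule names, 1 is not reported here.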

Additional observations from a re-analysis of the deposited data

How the results depend on the processing

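Among the log2 fold changes of the 6 members tested, over all comparisons and alternatives, 735 values kept their side of the threshold, some of those not called changing sign (Fgf7 and Fgfr3 in 4T1.2 against 4T1), 10 lost and 4 gained a call, and none of the called values reversed; for the other tested genes of the pathway lists in 4T1/4T1.2 against 66cl4/67NR, 1258 values kept their side of the threshold, 39 lost and 9 gained a call and none reversed. Most losses came in the fit with 2 groups of 4 libraries or with 1 library left out. The number of members called stayed within 1.5 times under every alternative run. The number of all genes called in 4T1.2 against 4T1 was 1728 with only these lines in the fit, against 2687 with all 8 libraries; leaving out 1 library at a time gave 1373 to 3107, the lowest without replicate 1 of 4T1.2 and 1428 without its replicate 2. In 66cl4 against 67NR leaving out 1 library gave 4143 to 6938, the lowest without replicate 2 of 67NR. A lone library left in a line was assumed to vary like the others. The replicate 1 minus replicate 2 differences correlated between lines at -0.123 to 0.27, the 0.27 being between 4T1.2 and 4T1. Whether replicate numbers pair the samples was not tested. With a replicate block the genes called in 4T1.2 against 4T1 went from 2687 to 2886. There 3 members in place of 2 were called, Fgfr2 joining at 0.52 (adjusted p = 0.0264, edgeR), and no other member's call changed. In the same fit S100a13 was called lower in 4T1/4T1.2 (-0.25, adjusted p = 0.0409). Fgfr2 was also called in 4T1.2 against 4T1 with no filter on low counts (0.51, adjusted p = 0.0421). With at least 10 counts in every library Fgfr3, with 9 counts in 1 library, could not be tested, and 5 in place of 8 heparan sulfate enzymes were lower because fewer were tested. RPKM on the library total instead of TMM moved 10 of the line means by more than 1 SD, such as Fgf1 in 4T1 from 21.5 to 19.2. Depth limits Fgf18, Fgf21 and Fgfr4, at 12 counts or fewer.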

Other observations

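The 5 genes whose profile over the 8 libraries lay nearest to that of Fgf1, by Euclidean distance of mean-centred log2 CPM, were Afap1l1, Nol4l, Calhm2, Slc9a3r2 and Slc18b1, with distances of 0.513 to 0.949 and Pearson's r of 0.994 to 0.998 as a description over 8 libraries that fall into 2 sets. Afap1l1, an actin filament-associated protein and the nearest of them, had a mean of 13.4 ± 0.827 CPM in 4T1.2 and 13.1 ± 1.67 CPM in 4T1, while 66cl4 had 0.111 ± 0.0322 and 67NR 0.310 ± 0.0252 CPM (SD, n = 2). Like Fgf1 it was lower in 66cl4 than in 67NR as a mean. Slc9a3r2, a scaffold protein of the apical membrane, had 28.3 ± 1.02 CPM in 4T1.2, 26.9 ± 2.67 CPM in 4T1, 0.571 ± 0.119 CPM in 67NR and 0.423 ± 0.286 CPM in 66cl4. The 10 fibroblast growth factor and receptor genes together summed to 333 and 275 CPM in the 4T1.2 libraries, 249 and 187 in those of 4T1, 155 and 163 in those of 66cl4 and 115 and 113 in those of 67NR.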
